A study of Mus musculus with 6 samples.

Results

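Tox3 and the other genes of its family, Tox, Tox2 and Tox4, were followed in prostates of mice with experimental autoimmune prostatitis, in which the prostate is inflamed by autoimmunity to its own antigens. The 4 genes were taken by symbol from a table of 18697 genes, and all 4 passed the filter on low counts that left 13753 genes. Tox3 was chosen by its TMM-scaled CPM in the 6 libraries, which separated the treatment groups more tightly than those of other genes, so its group difference is a description and carries no test. The other members were taken for their family name and were tested. Both groups carried the prostatitis model. One group was injected intraperitoneally on 14 consecutive days with VUF11207, a synthetic CXCR7 agonist (CXCR7 is a chemokine receptor encoded by Ackr3), at a daily dose of 5 mg per kg, and the other with the vehicle DMSO in an equal amount. Each group held 3 RNA sequencing libraries of prostate tissue. The sources used here state neither strain nor age, nor whether libraries came from separate animals. The p-values thus measure only the spread of these samples, which may be technical. In the vehicle group 1 library carried no replicate number and is called the unnumbered DMSO library.

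TOX proteins are nuclear proteins that share a single HMG box, a domain that bends DNA and binds it with little regard to sequence. TOX is best known from T cells, where it is needed for the development of CD4 lineage cells and for the exhausted state of chronically stimulated CD8 cells, and TOX2 acts in NK and T follicular helper cells. TOX3 is a transcriptional coactivator of epithelia and neurons that has been linked to CREB and CITED1. TOX4 is widely expressed and is a subunit of the PTW/PP1 phosphatase complex, which holds the protein phosphatase PP1, its targeting subunit PNUTS (Ppp1r10) and Wdr82.

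The coding sequences of the 4 genes were compared because reads can be assigned wrongly between genes that are near copies of each other. The stretch of 150 bases that was most alike in an alignment of the principal coding transcripts falls in the part that encodes the HMG box, and it lay within 1 exon in each gene. In mm10 it was in exon 5 of 7 of Tox3 (chr8:90254303-90254452, minus strand), exon 6 of 10 of Tox4 (chr14:52287354-52287503, plus strand), exon 5 of 9 of Tox (chr4:6722166-6722315, minus strand) and exon 5 of 9 of Tox2 (chr2:163315845-163315994, plus strand). It is given 5′ to 3′ on the coding strand, with capitals at the 105 of 150 positions where all 4 genes have the same base.
Tox3: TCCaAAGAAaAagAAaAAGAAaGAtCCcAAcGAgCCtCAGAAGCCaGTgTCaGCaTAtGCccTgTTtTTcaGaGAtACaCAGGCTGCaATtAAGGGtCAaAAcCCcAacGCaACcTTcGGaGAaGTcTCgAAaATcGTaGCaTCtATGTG
Tox4: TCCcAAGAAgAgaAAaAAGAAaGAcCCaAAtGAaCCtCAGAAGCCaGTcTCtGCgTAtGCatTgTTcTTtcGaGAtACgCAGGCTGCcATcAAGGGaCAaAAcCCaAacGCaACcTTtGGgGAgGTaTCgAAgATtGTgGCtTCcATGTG
Tox: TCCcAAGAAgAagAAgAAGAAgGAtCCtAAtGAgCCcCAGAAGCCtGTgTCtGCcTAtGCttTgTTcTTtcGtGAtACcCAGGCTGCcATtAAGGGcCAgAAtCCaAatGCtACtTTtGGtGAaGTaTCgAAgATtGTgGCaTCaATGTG
Tox2: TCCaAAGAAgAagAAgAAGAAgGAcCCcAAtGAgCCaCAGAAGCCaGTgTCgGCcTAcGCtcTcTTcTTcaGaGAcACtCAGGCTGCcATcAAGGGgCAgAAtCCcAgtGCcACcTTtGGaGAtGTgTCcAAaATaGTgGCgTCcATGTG
Even in this stretch Tox3 matched Tox at 78.7% of bases, and Tox2 and Tox4 at 80.0% each. The longest run of bases that any annotated Tox3 transcript shared exactly with another member was 24 bases, with Tox, and the runs shared with Tox4 and Tox2 were 15 and 14 bases. Over all aligned coding bases, Tox3 was identical to Tox at 57.8%, to Tox4 at 54.2% and to Tox2 at 53.9%. The members thus shared a domain but no long identical stretch.

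Tox3 differed from its relatives in a run of glutamine codons (CAG and CAA), the repeat behind the older gene name Tnrc9. The run had 9 codons in Tox3, at chr8:90248643-90248669 in the coding sequence (mm10, minus strand), and is shown with its single CAA codon in capitals.
Tox3 glutamine codon run: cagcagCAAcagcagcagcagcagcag
The longest such run was 3 codons in Tox4 and 2 codons in Tox and in Tox2. CAG and CAA together made up 17.0% of the 575 codons of Tox3, counting the stop codon, against 8.94% in Tox, 8.72% in Tox4 and 5.75% in Tox2.

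Tox3 lies on the minus strand of chromosome 8 from 90247040 to 90348343 (mm10, GENCODE M21), Tox4 on chromosome 14 from 52279146 to 52296401, Tox on chromosome 4 from 6686353 to 6991557 and Tox2 on chromosome 2 from 163203125 to 163324170. No annotated gene overlapped Tox3 or Tox2. Tox4 overlapped Rab2b by 400 bases and Mettl3 by 1561 bases, both on the opposite strand, and since the strand setting of the counting is not given in the sources used here, reads of these ends cannot be told apart. Tox overlapped the antisense gene Gm11802, which is not analysed here. In the RefSeq promoter windows (GRCm38.p6, 250 bases before to 50 after a start site), that of Tox3 held 52 CG dinucleotides, more than 99.4% of 32544 windows, that of Tox4 held 27 and the 5 windows of Tox2 held 7 to 39, against a median of 7. Tox has no entry in the table of windows.

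Tox3 was expressed at about 3 times the vehicle level in every library from VUF11207-treated mice. Levels are given as CPM, read counts relative to library size with TMM scaling, which allows for libraries of different composition, with exact Poisson 95% intervals that cover counting error only. Tox3 stood at 7.07 CPM (191 reads) in the unnumbered DMSO library, 5.50 CPM (78 reads) in DMSO replicate 2 and 7.34 CPM (227 reads) in DMSO replicate 3. With VUF11207 it stood at 20.4 CPM (603 reads), 20.5 CPM (611 reads) and 22.4 CPM (661 reads) in replicates 1, 2 and 3. The lowest VUF11207 library was thus 2.78 times the highest vehicle library, and the counting intervals of the vehicle libraries (the highest bound was 8.35 CPM) did not reach those of the treated ones (the lowest bound was 18.8 CPM). The group means were 21.1 CPM ± 1.10 with VUF11207 and 6.63 CPM ± 0.995 with vehicle (SD, n = 3 each). On the log2 scale the fitted change was 1.67 ± 0.21 (SE). These values are those by which Tox3 was chosen. Tissue RNA cannot tell apart more Tox3-expressing cells and more Tox3 RNA per cell.

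**Figure D1:**
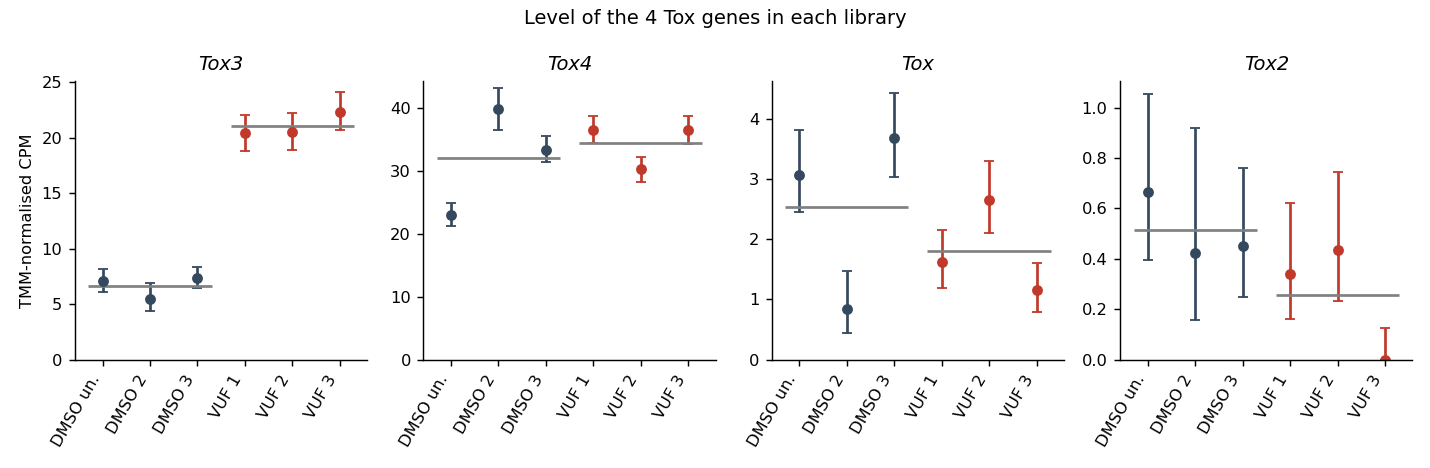
TMM-normalised CPM of Tox3, Tox4, Tox and Tox2 in the 3 DMSO libraries (dark, un. is the unnumbered library) and the 3 VUF11207 libraries (red, VUF); points are libraries, bars exact Poisson 95% intervals of the counts and grey lines group means. Tox3 lies between 5.50 and 7.34 CPM with DMSO and between 20.4 and 22.4 CPM with VUF11207, while the groups overlap for the other 3 genes.

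The libraries of each group were close to each other in Tox3. Its coefficient of variation was 5.23% among VUF11207 libraries, beside the 4% that counting alone gives at these depths, and 15.0% among vehicle libraries, where counting gives 8.38%. Among 2498 genes within 0.5 log2 CPM of Tox3 the median coefficient of variation was 18.5% with VUF11207 and 27% with vehicle, and 62 of them were tighter than Tox3 in both groups. On the log2 CPM scale the groups differed by 1.67 with a pooled SD of 0.167. A smaller pooled SD was found for 8.52% of the genes tested and a larger difference for 1.61%. Tox3 was chosen for its separation in these same libraries. Its spreads, shares and ranks given here therefore describe that choice and are no further evidence. The ratio of difference to pooled SD was 9.99 for Tox3, the highest of all genes tested. It was followed by Acot7 (8.70), an acyl-CoA thioesterase, Upp2 (7.31), a uridine phosphorylase, the condensin subunit gene Ncapd3 (7.03, lower with VUF11207), LOC102634078 (6.84, lower) and the sulfotransferase gene Chst12 (6.74). Acot7 was separated by a smaller fold than Tox3, with 8.59, 8.95 and 8.63 CPM in the unnumbered library and replicates 2 and 3 of vehicle and 12.1, 13.2 and 13.7 CPM in the treated replicates 1, 2 and 3. By the gap between the groups, Tox3 (2.779-fold) ranked 2 of the 648 genes without overlap whose average log2 CPM reached 1, after Dcaf12l1 (2.785-fold), which was named after its values were seen.

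**Figure D2:**
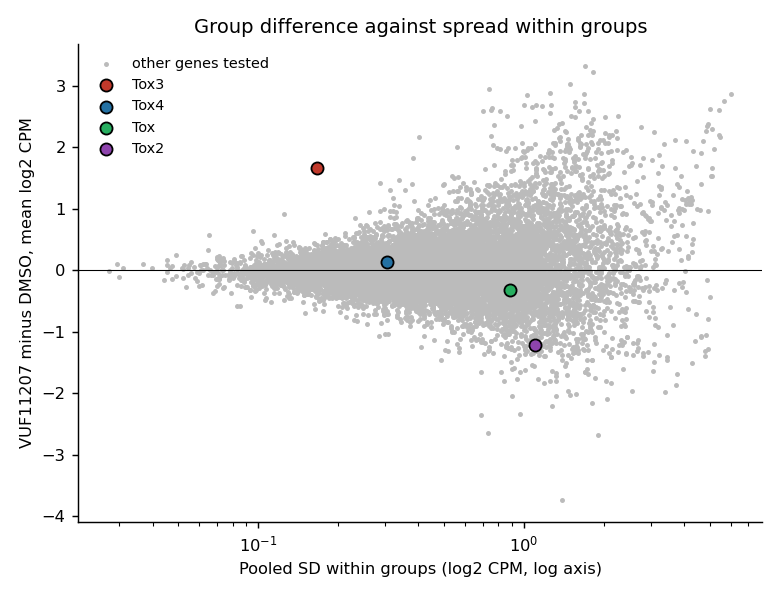
Difference between group means (y axis, VUF11207 minus DMSO, log2 CPM) against the pooled SD within groups (x axis, log2 CPM, log scale) for the 13753 genes tested, each a point, with the 4 Tox genes coloured. Tox3, at a difference of 1.67 and a pooled SD of 0.167, stands above the other genes of like spread, and Tox4, Tox and Tox2 lie within the mass of points. Tox3 was chosen for this separation in the same libraries.

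Tox4, the subunit of the phosphatase complex, did not pass the test between the groups. It was at 23.0, 39.7 and 33.4 CPM in the unnumbered DMSO library and DMSO replicates 2 and 3, and at 36.5, 30.2 and 36.4 CPM in the treated replicates 1, 2 and 3. The unnumbered library was lowest and DMSO replicate 2 highest, so the treated values lay within the vehicle range. The means were 34.4 CPM ± 3.61 with VUF11207 and 32.0 CPM ± 8.46 with vehicle (SD, n = 3 each). The log2 fold change was 0.10 ± 0.24 (SE), its 95% interval from -0.47 to 0.68 (edgeR quasi-likelihood, unadjusted p 0.685, adjusted p 0.9999). Without the unnumbered library the log2 fold change was -0.0864.

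Tox, the T cell member, varied more between libraries of a group than between the groups. Its levels were 3.07, 0.845 and 3.68 CPM in the unnumbered DMSO library and DMSO replicates 2 and 3, from 83, 12 and 114 reads. They were 1.62, 2.65 and 1.15 CPM in the treated replicates 1, 2 and 3, from 48, 79 and 34 reads. All treated values fell inside the vehicle range. The means were 1.81 CPM ± 0.767 with VUF11207 and 2.53 CPM ± 1.49 with vehicle (SD, n = 3 each). The fitted log2 change of -0.50 ± 0.66 (SE) did not pass the test (95% interval from -2.06 to 1.07; edgeR unadjusted p 0.476, adjusted p 0.9999). It was -0.12 without DMSO replicate 3 and -0.89 without DMSO replicate 2.

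Tox2, the member of NK and T follicular helper cells, was close to the limit of detection. Its reads numbered 18, 6 and 14 in the unnumbered DMSO library and DMSO replicates 2 and 3, or 0.666, 0.423 and 0.452 CPM. With VUF11207 there were 10, 13 and 0 reads, or 0.338 and 0.436 CPM in replicates 1 and 2, and in replicate 3 the 0 reads allow up to 0.101 CPM (3 counts, a one-sided limit), while the two-sided Poisson interval drawn in the plot of CPM by library ends at 0.125 CPM. The groups overlapped. The fitted log2 fold change was -0.99 ± 1.13 (SE) with a 95% interval from -3.68 to 1.71, which did not pass the test (edgeR unadjusted p 0.413, adjusted p 0.9999), and it was -0.41 without VUF11207 replicate 3. The coefficient of variation of Tox2 was 88.7% with VUF11207 and 25.8% with vehicle, where counting alone gives 36.1% and 30.1%.

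Over all genes, edgeR's quasi-likelihood test called 0 of 13753 at an adjusted p under 0.05 (0%), with 196 genes (1.43%) at an unadjusted p under 0.05. DESeq2 called 4 genes (0.0231% of those it tested), with 337 at an unadjusted p under 0.05, and limma voom 0, with 206. The groups did not overlap in 5.57% of genes, 3.05% higher and 2.52% lower with VUF11207. Among the 3 tested members beside Tox3, 0 were called and 0 were without overlap.

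Per length of the longest coding transcript (3356 bases for Tox3, 5350 for Tox4, 3961 for Tox and 2947 for Tox2), the vehicle prostates had the order Tox4, Tox3, Tox, Tox2. Levels there were 5.99 ± 1.58, 1.98 ± 0.296, 0.640 ± 0.377 and 0.174 ± 0.0451 CPM per kb (SD, n = 3), and the ranges of neighbours in this order overlapped only for Tox and Tox2. With VUF11207 the level of Tox3, 6.28 ± 0.329 CPM per kb, reached that of Tox4, 6.42 ± 0.675 CPM per kb (SD, n = 3 each), and their ranges overlapped. Tox and Tox2 stood at 0.456 ± 0.194 and 0.0876 ± 0.0777 CPM per kb (SD, n = 3 each), with ranges that did not meet. Tox3 and Tox4 change places with VUF11207 when all annotated exon bases are used as the length, which gives 4.94 ± 0.519 CPM per kb for Tox4 and 6.28 ± 0.329 for Tox3 (SD, n = 3).

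The other HMG-box genes give the family a wider setting. Of 44 other HMG-box genes listed, 40 were in the table and 33 were tested, of which 12 had positive and 21 negative log2 fold changes, 0 were called, and the median was -0.04, the same as the -0.04 over all genes tested. Among the 33, 0 were higher without overlap (3.05% of all genes tested) and 1 was lower (2.52% of all genes), shares that do not set the family apart. The lower one was the ribosomal RNA transcription factor gene Ubtf, with 93.1, 106 and 87.7 CPM in the unnumbered library and replicates 2 and 3 of vehicle and 83.4, 62.3 and 66.8 CPM in the treated replicates 1, 2 and 3 (log2 fold change -0.43 ± 0.20, SE). Among 11 SOX genes, which encode sequence-specific regulators of cell identity, values ran from -1.10 for Sox5 to 0.87 for Sox2. The lineage factor genes Sox7 and Sox17, expressed in endothelium, were at -0.90 ± 0.68 and 0.50 ± 0.51 (SE).

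The TCF/LEF genes encode the DNA-binding partners of beta-catenin in WNT signalling. Tcf7l2 had the smallest unadjusted p of the listed HMG-box genes, 0.0278 (edgeR, adjusted p 0.9999), with 42.1, 29.4 and 16.4 CPM in the unnumbered library and replicates 2 and 3 of vehicle and 14.5, 16.4 and 7.88 CPM in the treated replicates 1, 2 and 3. Its log2 change was -1.18 ± 0.42 (SE). The highest treated and the lowest vehicle library met at 16.4 CPM. Tcf7, a T cell factor, was at -0.83 ± 0.47, Lef1 at -0.35 ± 0.64 and Tcf7l1 at 0.51 ± 0.67 (log2 fold change, SE). The HMGB genes, whose products are abundant chromatin architectural proteins, spanned -0.11 to 0.18 (3 tested). The 15 tested genes of chromatin and transcription complexes had a median of -0.04 and ranged from -0.43 for Ubtf to 0.94 for Wdhd1, a replication factor with 144 reads in all.

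**Figure D3:**
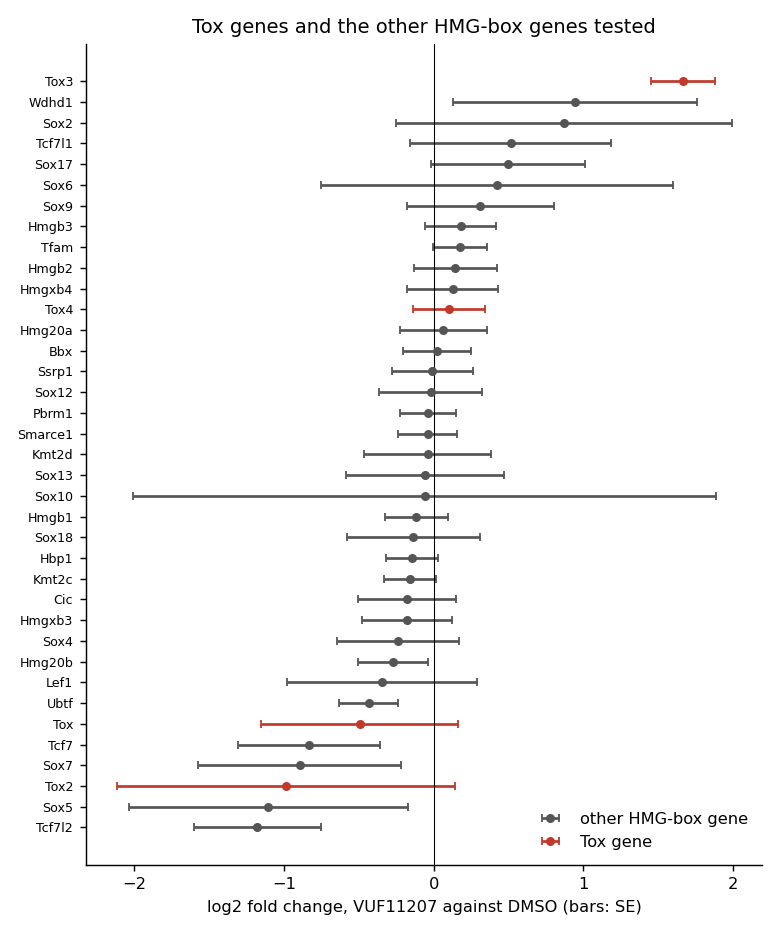
Log2 fold change (x axis, VUF11207 against DMSO) of the 4 Tox genes (red) and the 33 other HMG-box genes tested (grey), in order of their value; bars are SE of the edgeR fit. Tox3 has the highest value of the 37, at 1.67, and Tcf7l2 the lowest, at -1.18.

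Genes whose products are linked to TOX3 were tested next. Of 11 CREB and CITED coactivator genes, 5 had positive and 6 negative log2 fold changes, with a median of -0.08 and 0 called. Of the 11 genes, 1 was higher without overlap and 0 were lower, beside 3.05% and 2.52% of all genes tested. This was Cited2, a coactivator that binds CBP and p300. It was at 43.6, 38.6 and 57.7 CPM in the unnumbered library and replicates 2 and 3 of vehicle. In the treated replicates 1, 2 and 3 it was at 81.3, 86.9 and 203 CPM. The fitted log2 change was 1.41 ± 0.41 (SE), with an unadjusted edgeR p of 0.0109 and an adjusted p of 0.9999, and VUF11207 replicate 3 was the highest by far. Cited1, the reported partner of TOX3, varied from 0.851 to 86.9 CPM among vehicle and from 22.0 to 108 CPM among treated libraries (0.19 ± 1.29, log2 fold change, SE). Creb1 was at -0.21 ± 0.22, Crebbp, which encodes CBP, at -0.23 ± 0.22 and Crem, a CREB relative, at -0.73 ± 0.56 (log2 fold change, SE).

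The partners of TOX4 in the PTW/PP1 complex had 2 positive and 3 negative values, with a median of -0.07. Their log2 fold changes were 0.05 ± 0.31 for Ppp1r10, -0.11 ± 0.18 for Wdr82 and -0.07 ± 0.23, 0.15 ± 0.25 and -0.35 ± 0.46 for the PP1 catalytic subunit genes Ppp1ca, Ppp1cb and Ppp1cc (SE). None was called, and the groups overlapped for each.

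TOX3 is known from luminal epithelium, so its level was set beside epithelial genes. All 14 general epithelial markers were tested, 8 with positive and 6 with negative log2 fold changes between -0.37 and 0.25, and their summed level was 3622 to 4131 CPM with vehicle and 3465 to 4539 CPM with VUF11207. None was at 0 reads in any library, so epithelial RNA was present in every specimen. Relative to the geometric mean of these 14 genes, Tox3 was at 4.82%, 2.71% and 3.62% in the unnumbered DMSO library and DMSO replicates 2 and 3 and at 11.4%, 12.8% and 9.77% in VUF11207 replicates 1, 2 and 3. The ratio of group means was 3.04 on this scale and 3.18 in CPM. Relative to Epcam, an epithelial adhesion molecule, Tox3 was at 2.24% to 2.78% with vehicle and 6.13% to 7.40% with VUF11207, and relative to Krt8, a luminal keratin, at 1.39% to 3.22% and 5.83% to 8.26%. The groups did not overlap on any of these 3 scales. Tox3 was chosen because its CPM separated these libraries, so the lack of overlap is a description, and the part of epithelial content was not tested.

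**Figure D4:**
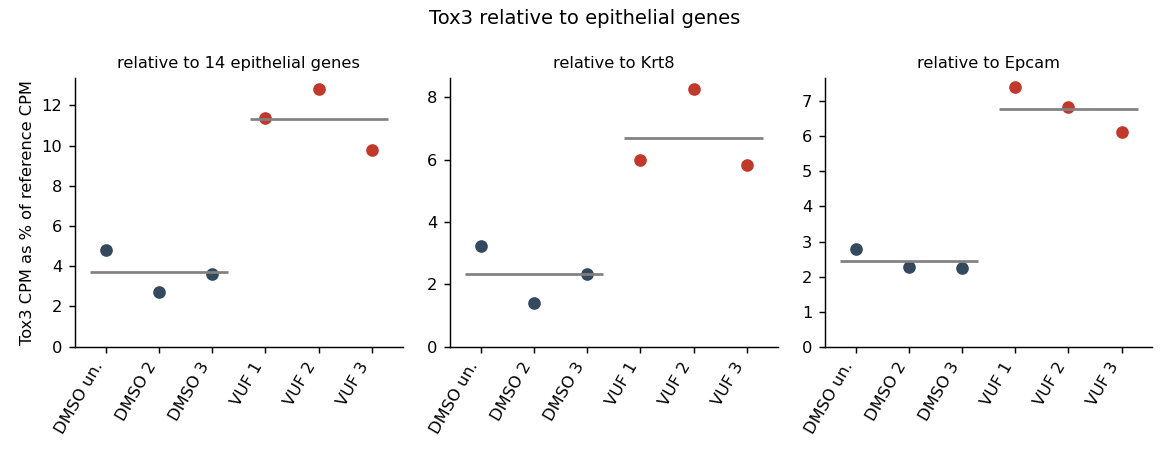
Tox3 CPM as a percentage of the geometric mean CPM of 14 epithelial genes, of Krt8 and of Epcam (y axes) in each library (x axis; dark DMSO, red VUF11207; grey lines are group means). The treated libraries lie above the vehicle libraries on each scale, from 9.77% to 12.8% against 2.71% to 4.82% for the 14 genes. Tox3 was chosen for its separation in CPM, so this is a description.

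Some prostate luminal and secretory genes were higher where Tox3 was, and others were not. Of 10 tested, 5 had positive and 5 negative log2 fold changes (median 0.25), 0 were called and 3 were higher without overlap, against 3.05% of all genes tested. These were Apof, which encodes apolipoprotein F (1.45 ± 0.25), Msmb, which encodes the secreted beta-microseminoprotein (2.66 ± 0.99), and Hoxb13, a homeobox gene of posterior prostate identity (0.92 ± 0.41; log2 fold change, SE). The list was chosen with earlier results of these data known, so its share without overlap is only a description. Foxa1, a pioneer factor of luminal cells, was at 0.53 ± 0.40 and Pbsn, which encodes probasin, at -0.93 ± 1.46 (log2 fold change, SE). The summed level of the 10 genes was 39917 to 69864 CPM with vehicle and 68864 to 152294 CPM with VUF11207, none was at 0 reads, and their part in the Tox3 difference was not tested. Pearson's r between Tox3 and the mean-centred level of this list was 0.69 over the 6 libraries, which share their tissue content, and is given as a description. Of 7 tested hormone-sensing luminal genes, 2 were positive and 5 negative. Pgr, the progesterone receptor gene, was the 1 higher without overlap (1.10 ± 0.61, log2 fold change, SE), beside 3.05% of all genes tested. The oestrogen receptor gene Esr1 was at -0.62 ± 0.67 (log2 fold change, SE). Both receptors were low, with 206 and 503 reads in all 6 libraries.

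Neurons and neuroendocrine cells, another known site of TOX3, left few reads. Of 12 markers, 5 were tested, 2 positive and 3 negative, and their summed level was 4.23 to 13.4 CPM with vehicle and 4.26 to 12.8 CPM with VUF11207, with up to 7 of the 12 at 0 reads in a library. Chga, a marker of neuroendocrine granules, was at -0.30 ± 0.89 (log2 fold change, SE). Basal epithelial markers had 6 of 8 positive values between -0.63 and 0.86, with Trp63, the basal transcription factor p63, at -0.01 ± 0.40 (log2 fold change, SE).

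The specimens differed in other tissues within both groups. Seminal vesicle genes took 0.695% to 63.3% of counts with vehicle and 3.11% to 27.8% with VUF11207, with the highest shares in DMSO replicate 2 and VUF11207 replicate 1, and all 8 had negative values (median -2.67). In DMSO replicate 3, Svs2 made up 80928.5 CPM of their sum of 132467 CPM, while Svs1 was at 199 CPM. The genes thus did not move together, and the share is no clear measure of that tissue. Skeletal muscle genes summed to 452 to 6314 CPM and 693 to 6659 CPM (9 of 12 positive, median 0.11), smooth muscle and stroma genes to 4249 to 13623 CPM and 3926 to 17288 CPM (9 of 10 positive, median 0.34), and urothelial genes to 58.0 to 235 CPM and 129 to 430 CPM (1 of 3 positive, median -0.49), with vehicle and VUF11207. None of these genes was called. In VUF11207 replicate 3, Upk1a made up 412 CPM of the urothelial sum of 430 CPM. Upk3a and Krt20 had only 14 and 4 reads in all, so the sum is no clear measure of urothelium. Acta1 likewise made up 776 CPM of the skeletal muscle sum of 901 CPM in the unnumbered DMSO library. In VUF11207 replicate 2 it made up 1126 CPM of 1280 CPM. The muscle myosin gene Myh4 was at 0.0740 and 1.01 CPM in these libraries, so the muscle sum is no clear measure of skeletal muscle. The log2 fold change of Tox3 was 1.59 without the 2 libraries richest in seminal vesicle counts and 1.56 to 1.75 when each library was left out in turn. Since Tox3 was chosen because all 6 libraries separated, these values are no sign of stability, and the part of tissue content in the difference was not tested.

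For Tox, T cell content was the matching comparison. T cell markers, of which 15 of 18 were in the table and 11 tested, summed to 6.83 to 27.8 CPM with vehicle and 6.63 to 30.8 CPM with VUF11207, with 3 positive and 8 negative values, a median of -0.23 and 0 called. The receptor chain gene Cd3d was at -1.18 ± 0.86, Cd3e at -0.29 ± 0.79 and Cd8a at -0.80 ± 0.75 (log2 fold change, SE). Cd2 and Cd28 went the other way, at 1.03 ± 1.35 and 1.23 ± 1.93 (log2 fold change, SE). The mean-centred level of the 11 genes was highest in the unnumbered DMSO library (1.26) and VUF11207 replicate 2 (1.24), near 0 in DMSO replicate 3 (0.02), and -0.97, -0.92 and -0.62 in DMSO replicate 2 and VUF11207 replicates 1 and 3. The 3 libraries richest in T cell marker RNA were also the 3 highest in Tox, although DMSO replicate 3 was the highest in Tox and not in T cell markers. Tox4 was lowest in the 2 libraries with the most T cell marker RNA, and Tox3 showed no such order, with 7.07 and 20.5 CPM in those 2 libraries. Pearson's r with the T cell level was 0.76 for Tox, -0.89 for Tox4 and -0.04 for Tox3 over 6 libraries, which share their differences in tissue content. It is given as a description and was not particular to T cells. Tox also had an r of 0.89 with the T follicular helper genes, of which only 3 were tested, 0.78 with B cell markers and -0.78 with urothelial markers. For Tox2, to which the T follicular helper genes are linked, the r with them was 0.23. Tox4 had an r of 0.98 with urothelial markers, a level that rests on 3 tested genes, and -0.93 with hormone-sensing genes.

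**Figure D5:**
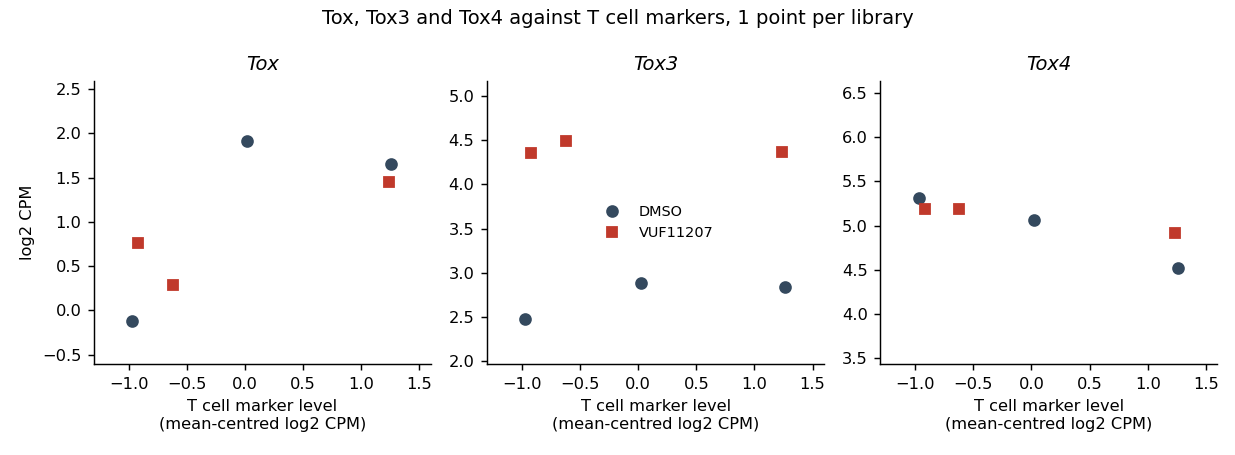
Log2 CPM of Tox, Tox3 and Tox4 (y axes, each spanning the same number of log2 units) against the mean-centred log2 CPM of 11 T cell markers (x axis), 1 point per library (dark circles DMSO, red squares VUF11207). Tox is highest in the 3 libraries with the highest T cell level and Tox4 lowest in the top 2, while Tox3 lies by treatment, with 7.07 and 20.5 CPM in the top 2.

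Genes linked to TOX in exhausted T cells had 3 positive and 6 negative values among the 9 tested of 15, with a median of -0.25 and 0 called. The list is no measure of T cells alone, with Nr4a3 at 74.7 CPM and Cd3e at 0.564 CPM in DMSO replicate 2. The calcium-regulated factor gene Nfatc2 was at -1.56 ± 0.67, the nuclear receptor gene Nr4a2 at -0.85 ± 0.45 and the checkpoint receptor gene Havcr2 at -1.13 ± 0.90 (log2 fold change, SE). Entpd1 and Cd160 went the other way, at 0.22 ± 0.33 and 0.35 ± 1.19 (log2 fold change, SE). Of the 9 tested, only Nr4a2 was lower without overlap, beside 2.52% of all genes tested, and 0 were higher. Pdcd1, which encodes the checkpoint receptor PD-1, had 47 reads in all and fell under the filter, with 1.07 CPM in VUF11207 replicate 2 and at most 0.296 CPM elsewhere. Of the T follicular helper genes linked to TOX2, 3 of 7 were tested, with Bcl6, the master factor of these cells, at 0.52 ± 0.32, the chemokine receptor gene Cxcr5 at -1.23 ± 1.37 and its ligand gene Cxcl13 at -0.26 ± 1.21 (log2 fold change, SE). NK cell markers had 4 of 5 tested values positive (median 0.36), with Klrd1 at -0.99 ± 0.68, and B cell markers 3 of 5 (median 0.01; log2 fold change, SE). The other NK cell markers of the list of 8, Ncr1, Klrb1c and Prf1, had 47, 11 and 34 reads in all and fell under the filter. None of the tested genes was called.

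Likeness to each member was ranked over genes whose average log2 CPM reached 1, leaving out Gm-numbered, Rik and LOC names. This left 11561 genes to compare, and 11562 for Tox2. The genes most like Tox3 across the 6 libraries, by Pearson's r of log2 CPM, were Chst12 (0.968), Acot7 (0.967), Apof (0.959), Nsmce3 (0.955), Bub3 (0.947) and Ywhah (0.946). Each was higher without overlap with VUF11207, which a likeness to Tox3 brings with it. Their log2 fold changes were smaller than that of Tox3, at 0.65, 0.57, 1.45, 0.45, 0.18 and 0.48 in the same order. Apof ran from 49.8 to 61.2 CPM with vehicle and from 114 to 189 CPM with VUF11207, and Bub3, a mitotic checkpoint gene, only from 36.0 to 38.0 CPM and from 40.4 to 43.1 CPM. Of the genes compared, 32 reached an r of 0.9 with Tox3, against 698 with Tox4, 97 with Tox and 76 with Tox2. Closest to Tox4 were Pgam1 (0.997), a glycolytic enzyme, Sae1 (0.997), Kif16b (0.996) and Zfp110 (0.995). Closest to Tox were Cdan1 (0.995), Plcg2 (0.995), a phospholipase of immune receptor signalling, Ubxn2b (0.989) and Mtx3 (0.988), and closest to Tox2 were Wasf3 (0.983), Ccser2 (0.980), Snph (0.979) and Patz1 (0.976). Between members, r with Tox3 was 0.17 for Tox4, -0.10 for Tox and -0.58 for Tox2.

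Tox3 sits in a gene-poor stretch of chromosome 8, and the neighbouring protein-coding genes had smaller differences between the groups than Tox3. Chd9, a chromatin remodeller gene 480 kb away, was at 13.3, 15.3 and 23.0 CPM in the unnumbered library and replicates 2 and 3 of vehicle and at 23.5, 20.8 and 26.0 CPM in the treated replicates 1, 2 and 3. This was a log2 change of 0.44 ± 0.26 (SE) with overlapping groups. On the other side, Sall1, a zinc finger gene 1203 kb away, was near the limit of detection, with 114 reads in all. Its log2 change was -1.18 ± 1.04 (SE). Cyld, a deubiquitinase gene 1495 kb away, was at 0.02 ± 0.17 (log2 fold change, SE). None of the 3 passed edgeR's test (adjusted p 0.9999 each). Gm19935, annotated between Tox3 and Chd9, is not analysed here.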

How the data were processed

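The 4 Tox genes were examined in RNA sequencing data of 6 prostate libraries, 3 with VUF11207 and 3 with DMSO, grouped by the sample labels. The build mm10 and the tools HTSeq, HISAT2 and fastp are named in the submitters' processing notes. The sources used here give no versions, annotation or strand setting. The authors deposited unnormalised counts, whole numbers of reads for each gene symbol. The 5 files of single libraries were identical to the table, and the column of the remaining DMSO library matched no numbered sample. Totals ran from 20308018 to 33368058 counts, and TMM factors from 0.425 in DMSO replicate 2 to 1.33.

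Counts were filtered with filterByExpr, scaled by TMM and tested by edgeR 4.0.16 (quasi-likelihood, robust, two-sided) with Benjamini-Hochberg adjustment over all genes and called at 0.05. Each SE is the absolute log2 fold change divided by the root of its F value. The log2 CPM used a prior count of 2. DESeq2 1.42.0, limma 3.58.1 (voom), other scalings and filters, a replicate block and leaving out each library were alternatives. An exact permutation test of 3 against 3 libraries cannot go below 0.1, so none is given. Coding sequences of GENCODE M21 were aligned with MAFFT 7.526, and promoters came from RefSeq.

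The members and the 20 gene lists were chosen with earlier results of these data known. Named genes were the members, 16 genes chosen by name, up to 3 genes per list with the smallest p and up to 2 the other way, the genes most like each member, 2 neighbours of Tox3 on either side, and the 5 genes after Tox3 by separation. Leaving out the 2 libraries richest in seminal vesicle counts, and a block by the numbers in the column names, were chosen after seeing the data.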

Additional observations from a re-analysis of the deposited data

How the results depend on the processing

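The count of genes called was 0 in edgeR, 4 with DESeq2 and 3, all higher, with library totals as the scaling. It was 0 under the other 15 alternatives, among them each left-out library (0 to 0). With library totals the median over all genes was 0.14 in place of -0.04, and relative to it Tox was at -0.66, Tox2 at -1.0, Tox3 at 1.64 and Tox4 at 0.25. The log2 fold change of Tox3 ran from 1.56 to 1.79 over 17 alternatives, which the choice of Tox3 on these libraries makes no sign of stability. That of Tox stayed negative, from -0.89 to -0.12 with 1 library left out and -0.06 with the replicate block, as did that of Tox2, from -1.58 to -0.41, and -1.94 with limma voom. Tox2 fell out under a filter of 1 CPM in 3 libraries. Tox4 turned to -0.12 with the replicate block and ran from -0.0864 (without the unnumbered DMSO library) to 0.30 with 1 library left out. No alternative brought Tox, Tox2 or Tox4 past the threshold. The block over labelled numbers could use replicates 2 and 3 only. The column names carry numbers that the groups share, which would pair the unnumbered DMSO library with VUF11207 replicate 1. A replicate block over these 3 pairs, chosen after seeing the data, gave Tox -0.40, Tox2 -1.53, Tox3 1.68 and Tox4 0.13. Both blocks called 0 genes. The correlations of deviations within the pairs were -0.59, -0.33 and 0.05, and no library correlated best with its own number, so the numbers were not taken to pair the samples. Tox2 had 61 reads in all. For Tox the coefficient of variation was 42.5% with VUF11207 and 59.0% with vehicle, where counting alone gives 13.7% and 13.6%.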
